A study of Mus musculus with 4 samples.

Results

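Of the matrix metalloproteinases (MMPs) and their tissue inhibitors (TIMPs), 5 of the 328 genes on the Xenium panel are described here. These were *Mmp2*, *Mmp9*, *Mmp14*, *Timp1* and *Timp3*, chosen by name as the listed proteinases and inhibitors, and all 5 were detected in every skin section. Xenium counts single RNA molecules in place in a tissue section and assigns each to a cell outlined around its nucleus. The 4 slides held unwounded dorsal skin of male mice, unwounded dorsal skin of female mice, buccal mucosa of both sexes, and dorsal skin wounds of male mice on day 4.

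The mice carried a Tet-On system in which the *Krt5* promoter, active in basal keratinocytes, drives the reverse transactivator and a tetracycline-responsive element drives *Pitx1*. Doxycycline in the chow switched on the transgene in PITX1+ skin, and Control littermates received normal chow (labelled Vehicle). The labels give both conditions for a slide as a whole. The condition of a section was therefore assigned by its position, with Control sections 1 and 2 and PITX1+ sections 1 and 2 on the female slide, Control section 3 and PITX1+ sections 3 and 4 on the male slide, and a Control wound and PITX1+ wounds 1 and 2 on the wounded slide. The 7 buccal sections were from unwounded mucosa and were numbered by position. The labels do not tie sections to animals. The study counts its unwounded PITX1+ replicates on these slides as mice, and it cut each wound through the midline before embedding. Where sections share an animal, p-values measure a spread that may be technical.

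MMP2 and MMP9 are the gelatinases, secreted enzymes that digest denatured collagen and basement membrane collagen. MMP14 is anchored in the cell membrane, cleaves fibrillar collagen and, together with a TIMP, activates the precursor of MMP2 at the cell surface. TIMPs bind the active site of MMPs; TIMP1 is a soluble inhibitor that is typically induced in injured tissue, and TIMP3 stays bound to the extracellular matrix.

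Of the cells on the slides, 426404 in 17 sections held at least 10 transcripts and were kept, with 134076 to 5560941 panel transcripts in the kept cells of a section. Clustering without the 5 genes gave 13 kinds of cells named from marker genes, which covered 95.8% of kept cells. A name ending in -like marks such a kind. Each fibroblast-like, macrophage-like and vascular-like kind had all of its listed markers above the other cells (9 of 9, 11 of 11 and 8 of 8), and neutrophil-like cells 8 of 9. *Pitx1*, the check of the assignment, separated the conditions on the male slide (0.394 transcripts per 1000 cells in Control section 3 against 53.4 and 44.5 in PITX1+ sections 3 and 4). It did not on the female slide, where Control sections held 3.23 and 2.21 and the sections assigned to PITX1+ held 3.16 and 4.69. Negative control probes, which have no target, read 2.55 and 2.14 per probe per 1000 kept cells in these Control sections. They read 2.04 and 1.60 in these PITX1+ sections. Activated keratinocyte-like cells, in contrast, made up at most 0.0237% of cells in the 3 Control sections. They made up 6.45% and 4.98% in PITX1+ sections 1 and 2 of the female slide and 4.47% and 0.678% in PITX1+ sections 3 and 4 of the male slide. The conditions on the female slide were nevertheless taken from position and not from these values.

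Each gene had its own distribution over cell kinds in unwounded skin. Levels are given as CPM, the transcripts of the gene in 1000000 panel transcripts in a kind of cell in a section. They are compared within a gene only, since probes differ in efficiency. In bulk sums of this kind, fewer expressing cells and less RNA per cell cannot be told apart. *Mmp2* was highest in fibroblast-like cells, with a median of 13101 CPM over 7 skin sections (7091 to 30675), ahead of neural-like cells (median 5829, 814 to 16021). The ranges of these neighbors overlapped. *Mmp14* was also highest in fibroblast-like cells, with a median of 25494 CPM (18733 to 41156), followed by T or NK cell-like cells (median 11347, 4745 to 19584), and the ranges again overlapped. T or NK cell-like cells were a single cluster, with a median of 28 transcripts per cell. Among the 10 leading genes of this cluster were 4 markers of B or plasma cells, *Jchain*, *Igkc*, *Ms4a1* and *Cd79a*. The part of other cells in the levels of this kind was not tested.

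*Mmp9* was highest in neutrophil-like cells in unwounded skin. The 3 sections with at least 50 such cells, PITX1+ sections 1, 2 and 3, held 1877, 677 and 23363 CPM. T or NK cell-like cells came next (median 684, 368 to 3851), then basal keratinocyte-like cells (median 414, 171 to 645). Ranges overlapped between these neighbors.

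*Timp1* was low in unwounded skin, with a median of 219 CPM in T or NK cell-like cells (0 to 416) and 172 in fibroblast-like cells (24.3 to 670), whose ranges overlapped. *Timp3* had a different order, led by hair follicle keratinocyte-like cells (median 12230, 2745 to 19739), neural-like cells (median 10381, 5922 to 37153) and vascular-like cells (median 8342, 4755 to 20451). Fibroblast-like cells came next for *Timp3* (median 4983, 1259 to 6589). The leading positions of *Timp3* overlapped as well.

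**Figure D1:**
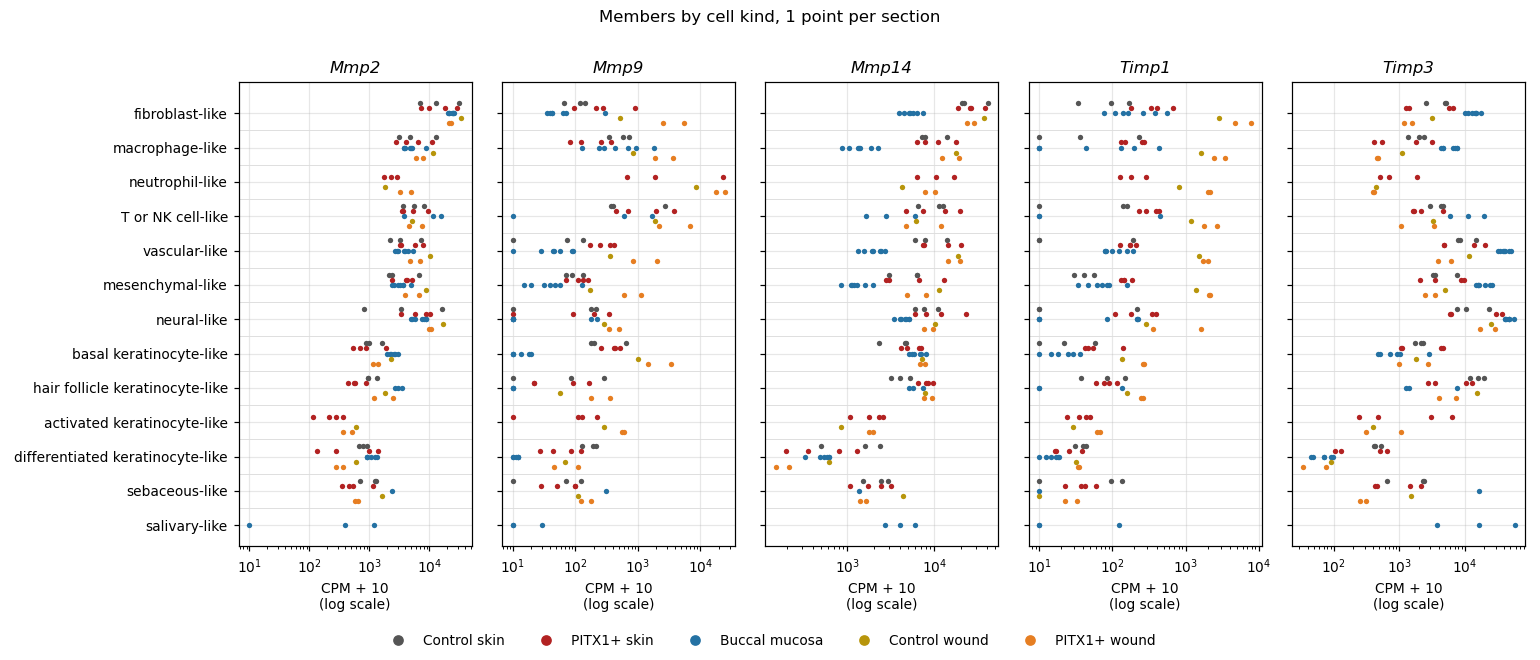
Level of each gene (x axis, CPM + 10, log scale) in each kind of cell (y axis), 1 point per section colored by group. *Mmp2* and *Mmp14* peak in fibroblast-like cells of skin, *Mmp9* in neutrophil-like cells, and *Timp3* in hair follicle keratinocyte-like, neural-like and vascular-like cells.

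Where the transcripts lay depended on both level and cell number. In Control skin, fibroblast-like cells held 52.8%, 76.5% and 75.0% of the *Mmp2* transcripts in sections 1 to 3. They held 50.6%, 74.5% and 76.8% of those of *Mmp14*, and 31.4%, 23.4% and 28.6% of those of *Timp3*. Keratinocyte-like cells held 34.2%, 50.9% and 32.7% of the *Timp3* transcripts there. Fibroblast-like cells made up 24.1%, 30.6% and 32.2% of the cells in these sections.

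The genes of the panel whose levels followed each of the 5 most closely were found over the medians of 13 kinds in unwounded sections, as a description. For *Mmp2* these were *Tnxb* (Pearson r = 0.96), *Angptl1* (0.93) and *Igfbp6* (0.91). For *Mmp9* they were *Cd52* (0.91), *F10* (0.90) and *Cxcl3* (0.87). *Mmp14* was followed by *Crabp1* (0.91), *Wif1* (0.88) and *Postn* (0.87). *Timp1* ran with *Itgb3* (0.96), *Col1a1* (0.95) and *Fn1* (0.94), and *Timp3* less closely with *Sdc2*, *Itgb1* and *Itga1* (0.83, 0.83 and 0.82). Among the 5 genes, the pair with the highest r was *Mmp2* and *Timp1* (0.77), and *Mmp9* and *Timp3* had the lowest (-0.28). The kinds share sections and segmentation, and such values are no test.

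The first comparison asked whether induction of *Pitx1* in keratinocytes went with other levels of proteinases and inhibitors in unwounded skin. Sections assigned to PITX1+ had more *Timp1* in fibroblast-like cells and more *Mmp14* in keratinocyte-like cells. No other of the 5 genes passed the test in a class of cells, among fibroblast-like, keratinocyte-like, macrophage-like, vascular-like and mesenchymal-like cells (the last pooling smooth muscle, pericytes and skeletal muscle) and all cells together.

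*Timp1* in fibroblast-like cells stood at 87.0, 24.3 and 161 CPM in Control sections 1 to 3. In PITX1+ sections 1 to 4 it stood at 392, 172, 670 and 321 CPM. Each PITX1+ section was above every Control section, by a narrow margin between PITX1+ section 2 and Control section 3. Per 1000 fibroblast-like cells there were 0.83 to 5.64 *Timp1* transcripts in Control and 9.54 to 39.4 in PITX1+ sections. Negative control probes read 1.02 to 2.55 per probe per 1000 kept cells in Control and 0.774 to 2.04 in PITX1+ sections. The lower Control values of *Timp1* thus lay near that background. With slide as a covariate, the log2 fold change was 1.83 (SE 0.43, edgeR adjusted p = 0.0364, n = 4 and 3 sections). It was the only one of the 5 genes called in this class, in which 7.62% of all genes tested passed. On the female slide alone (2 against 2 sections) the log2 fold change was 2.13, a call (edgeR adjusted p = 0.00149). On the male slide alone, on which *Pitx1* followed the assignment, it was 1.24, given as a value only, since that slide has 1 Control section. The call was lost without any one of 6 of the 7 sections (edgeR adjusted p 0.0525 to 0.127), without the slide covariate (adjusted p = 0.469), with transcripts over the nucleus (0.0548), and with 30 and 60 clusters (0.0675 and 0.0646).

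The fibroblast-like cells of the 2 conditions lay in different clusters in part. Cluster 11, led by *Col1a1* and *Penk*, held 58.1%, 86.0% and 42.1% of them in Control sections and 50.9%, 56.9%, 14.4% and 13.3% in PITX1+ sections. Its 10 leading genes also took in *Mcpt4*, *Jchain* and *Cd7*, markers of other kinds, and its median was 24 transcripts per cell. The part of other cells in its levels was not tested. Within cluster 11, *Timp1* stood at 86.5, 28.4 and 127 CPM in Control and at 253, 152, 740 and 103 CPM in PITX1+ sections, so that PITX1+ section 4 lay below Control section 3. *Timp1* also overlapped in clusters 17 (0 to 213 CPM against 131 to 656), 19 (0 to 319 against 34.0 to 458) and 33 (0 to 179 against 108 to 635). In cluster 37 Control sections held 0 in 169, 76 and 198 cells, few for a gene this rare, and PITX1+ sections held 257 to 1914 CPM. Cluster 24 overlapped, with 900 and 257 CPM in Control sections 1 and 3 (98 and 64 cells). It held 0, 502 and 308 CPM in PITX1+ sections 1, 3 and 4 (60, 63 and 153 cells). Cluster 39 held 915, 879 and 811 CPM in PITX1+ sections 1 to 3 and under 50 cells in each Control section. The part of this mixture was not tested. *Mmp9* in fibroblast-like cells had a log2 fold change of 1.48 and was not called (edgeR adjusted p = 0.145). It became a call with library totals (1.67, edgeR adjusted p = 0.0451), without Control section 3 (2.62, adjusted p = 0.0412) and without PITX1+ section 4 (1.82, adjusted p = 0.0319). On the female slide alone it was 2.55 (edgeR adjusted p = 1.92e-05), and the value on the male slide alone was -0.24. Per 1000 fibroblast-like cells there were 1.94 to 4.66 *Mmp9* transcripts in Control and 7.81 to 29.6 in PITX1+ sections. Negative control probes read 2.55 and 2.14 per probe per 1000 kept cells in Control sections 1 and 2. The lower Control values of *Mmp9* thus also lay near background.

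Neutrophil-like cells were more frequent in PITX1+ sections (0.17% to 1.31% of cells) than in Control sections (0.01% to 0.15%). The 9 neutrophil markers summed within fibroblast-like cells to 938 to 1972 CPM in Control and 1124 to 4221 CPM in PITX1+ sections, and 1 marker was at 0 in Control section 3. In fibroblast-like cells farther than 50 µm from any neutrophil-like cell, the log2 fold change of *Timp1* was 1.38 (edgeR adjusted p = 0.0671). The part of neutrophil transcripts in the result was not tested otherwise.

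*Mmp14* in keratinocyte-like cells, the sum of basal, differentiated, activated and hair follicle kinds, stood at 3158, 3306 and 1639 CPM in Control sections. The PITX1+ sections held 3978, 5488, 5274 and 6223 CPM, all above the Control sections. The log2 fold change was 1.09 (SE 0.24, edgeR adjusted p = 0.0147). *Mmp14* was the 1 gene called of the 5, and 36.0% of all genes tested in keratinocyte-like cells passed. On the female slide alone the log2 fold change was 0.83 (2 against 2 sections, edgeR adjusted p = 0.0348). On the male slide it was 1.72, given as a value only, since that slide has 1 Control section. The call was lost without Control section 1 (adjusted p = 0.0546), without PITX1+ section 2 (adjusted p = 0.0621) and without the slide covariate (adjusted p = 0.0819).

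*Mmp2* in keratinocyte-like cells had a log2 fold change of -0.74 (SE 0.29), which edgeR did not call (adjusted p = 0.0805) and DESeq2 did (adjusted p = 0.0222). The kinds within the *Mmp14* sum did not all differ in the same direction. Hair follicle keratinocyte-like cells held 5245, 3980 and 3179 CPM of *Mmp14* in Control and 8538, 9680, 6439 and 8025 in PITX1+ sections, with no overlap. Basal keratinocyte-like cells held 4587, 4673 and 2317 CPM in Control sections. They held 6708, 6958, 4788 and 4144 in PITX1+ sections, so that the groups overlapped but PITX1+ sections were higher within each slide. Differentiated keratinocyte-like cells went the other way on the female slide, from 1580 and 2374 CPM to 339 and 189. The share of hair follicle keratinocyte-like cells was 6.56%, 7.85% and 9.41% of cells in Control and 8.40%, 22.9%, 32.4% and 26.6% in PITX1+ sections, and the part of this mixture in the summed difference was not tested. This kind took in cluster 16 (7773 cells), led by *Prc1* and *Top2a*, genes of dividing cells, with 1 marker of the kind among its 10 leading genes.

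**Figure D2:**
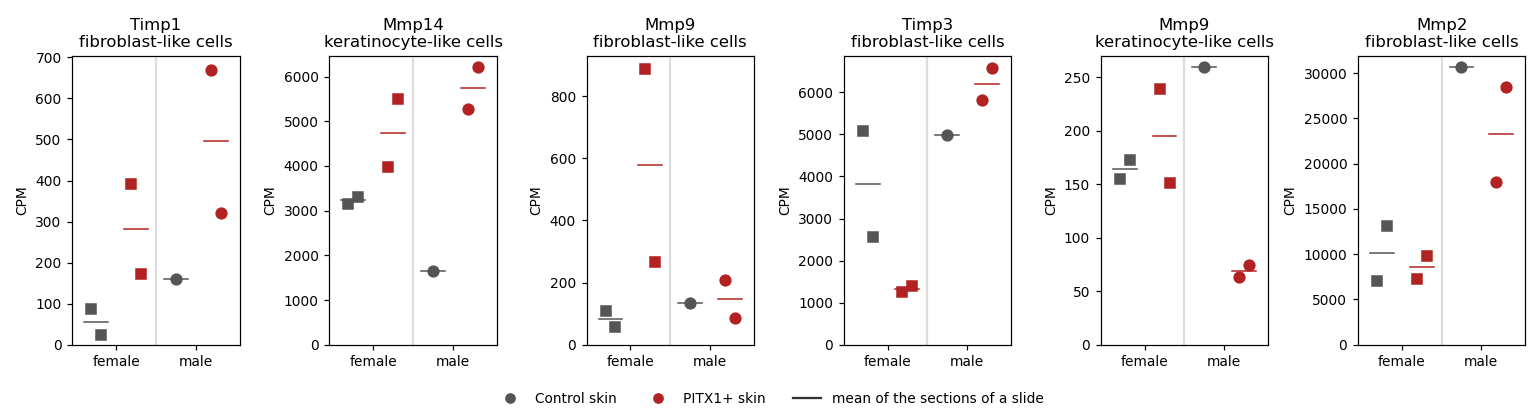
Levels (y axis, CPM) in unwounded skin, 1 point per section, Control and PITX1+ sections by slide. The 4 PITX1+ sections lie above the 3 Control sections for *Timp1* in fibroblast-like cells (172 to 670 against 24.3 to 161) and for *Mmp14* in keratinocyte-like cells (3978 to 6223 against 1639 to 3306).

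In macrophage-like cells 0 of 5 genes passed in edgeR, against 1.54% of all genes tested, and 2 had an unadjusted p under 0.05. These were *Mmp9* (log2 fold change -1.48, adjusted p = 0.229) and *Timp3* (-1.11, adjusted p = 0.205). In vascular-like cells 0 of the 4 genes tested passed, against 2.13% of all, with 2 at an unadjusted p under 0.05, *Mmp9* (1.80, adjusted p = 0.274) and *Mmp14* (0.61, adjusted p = 0.281). *Timp1* was too rare there to test. In mesenchymal-like cells 0 of 5 passed, against 0.629% of all, and 1, *Timp1*, had an unadjusted p under 0.05 (1.98, adjusted p = 0.161). Over all cells 0 of 5 passed, against 20.4% of all, and 1 was under 0.05 without adjustment, again *Timp1* (0.96, adjusted p = 0.112). DESeq2 called none of the 5 genes in these 4 classes either. Other settings gave 4 calls, *Timp3* without Control section 3 in macrophage-like cells (-1.70, edgeR adjusted p = 0.00938) and in all cells (-1.25, adjusted p = 0.0312), *Mmp14* in vascular-like cells with transcripts over the nucleus (1.15, adjusted p = 0.00554), and *Timp1* in mesenchymal-like cells with at least 20 transcripts (2.54, adjusted p = 0.0406). On the female slide alone *Timp3* was called in macrophage-like and all cells.

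*Mmp9* in keratinocyte-like cells differed between the slides in its response. On the female slide the Control sections held 155 and 173 CPM and the sections assigned to PITX1+ held 239 and 151. On the male slide, Control section 3 held 260 CPM and the PITX1+ sections held 63.1 and 74.2. The female slide's log2 change minus that of the male slide was 2.74. This is given as a value only, since the male slide has 1 Control section and the other groups alone gave the spread. Sex, slide and the *Pitx1* discrepancy cannot be told apart here. *Timp3* in fibroblast-like cells was not called over both slides (-0.92, edgeR adjusted p = 0.164). It fell from 5090 and 2565 CPM in Control to 1259 and 1400 on the female slide, a call when that slide was fitted alone (-1.59). The male values were 4983 in Control and 5821 and 6589 in PITX1+ sections. The difference of the *Timp3* responses between the slides was -1.65, also given as a value only.

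The second comparison set buccal mucosa, an oral lining that naturally expresses *Pitx1*, against Control skin. *Mmp14* was lower and *Timp3* higher in each of the classes of stromal, immune and vascular cells, whereas in keratinocyte-like cells *Timp3* and *Mmp9* were lower and *Mmp2* higher. Tissue and slide cannot be told apart, since all mucosa lay on a single slide. Buccal section 3 stood apart, with 2449 kept cells and 0.08% basal keratinocyte-like cells, and Buccal section 6 held 43.8% salivary-like cells. The calls below were kept without either of them, and without Buccal section 3 there were also calls of *Mmp9* over all cells (log2 fold change -2.65, edgeR adjusted p = 0.00233) and *Mmp2* in macrophage-like cells (-1.04, edgeR adjusted p = 0.0224).

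*Mmp14* in fibroblast-like cells stood at 20491, 41156 and 21947 CPM in Control skin. The 7 buccal sections held 3906 to 7377 CPM, with a median of 5180, and no section overlapped with Control skin. The log2 fold change was -2.70 (SE 0.32, edgeR adjusted p = 0.000163). *Timp3* in the same cells stood at 5090, 2565 and 4983 CPM in Control skin and at 9931 to 17961 in mucosa (median 14115), also without overlap. Its log2 fold change was 1.44 (SE 0.32, edgeR adjusted p = 0.00618). These were the 2 genes called of 5, against 30.1% of all genes tested. *Mmp2* had overlapping values (7091, 13101 and 30675 CPM against 20329 to 25951) and a log2 fold change of 0.03 (SE 0.46), which became 1.06 and a call without Control section 3 (edgeR adjusted p = 0.0486). The fibroblast-like cells of the tissues fell into different clusters. Cluster 24, led by *Angptl1* and *Abca8a*, held 21.8% to 86.1% of buccal fibroblast-like cells, and cluster 11, led by *Col1a1* and *Penk*, held 42.1% to 86.0% of those in Control skin. Within cluster 11, the buccal sections that had over 5% of their fibroblast-like cells there held 2020 to 11639 CPM of *Mmp14*, below the 19513 to 43890 in Control sections. Markers of other kinds were among the leading genes of cluster 11, and their part was not tested here either.

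Macrophage-like cells had the largest estimated reduction of *Mmp14* among the classes tested, from 7724, 13830 and 7222 CPM in Control skin to 851 to 2211 in mucosa (median 1339). The log2 fold change was -3.23 (SE 0.31, edgeR adjusted p = 6.69e-06). *Timp3* rose by 1.17 on the log2 scale (SE 0.28, adjusted p = 0.00755), a call lost with transcripts over the nucleus (0.91, edgeR adjusted p = 0.136), and *Mmp2* did not pass (-0.91, adjusted p = 0.0607). So 2 of 3 genes tested passed, against 27.1% of all. Summed fibroblast markers within macrophage-like cells were lower in mucosa (24628 to 35372 CPM) than in Control skin (54194 to 147099), with at most 1 of the 9 at 0 in a section, and their part in the *Mmp14* difference was not tested. Cluster 41, led by *Mrc1* and *C1qa*, held 95.5%, 94.4% and 38.8% of macrophage-like cells in Control skin. Its *Mmp14* level was 7711, 14109 and 8799 CPM there and 1032 to 1735 CPM in the 4 buccal sections with at least 50 cells in it, without overlap.

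In vascular-like cells *Mmp14* went from 7784, 13903 and 5965 CPM in Control skin to 1317 to 2705 in mucosa (log2 fold change -1.99, SE 0.29, edgeR adjusted p = 0.000942). *Timp3* there went from 7981, 8342 and 14912 CPM to 32457 to 51260, the highest levels of *Timp3* in the classes tested (2.08, SE 0.29, edgeR adjusted p = 0.000893). Neither gene overlapped between the tissues. The 9 fibroblast markers within vascular-like cells summed to 58154 to 126117 CPM in Control skin and 33644 to 55570 in mucosa, with none at 0, and within mesenchymal-like cells to 40805 to 69418 and 25675 to 37638. Their part in the *Mmp14* differences was not tested. With *Mmp2* not called, 2 of 3 passed in vascular-like cells, against 29.0% of all genes. Mesenchymal-like cells also had 2 of 3 called, against 33.8% of all, with log2 fold changes of -1.67 for *Mmp14* (SE 0.25, edgeR adjusted p = 0.000613) and 2.10 for *Timp3* (SE 0.42, edgeR adjusted p = 0.00404). The mesenchymal-like cells of the tissues fell into different clusters. Cluster 15, led by *Abcc9* and *Des*, held 5.13%, 4.70% and 28.4% of them in Control skin and 37.3% to 71.1% in mucosa. Within it *Mmp14* overlapped (1240, 974 and 1254 CPM against 501 to 1359), and *Timp3* did not (2067, 2923 and 6554 CPM against 11922 to 20765). Values within the other clusters of mesenchymal-like cells are not given here. The part of the mixture in the differences was not tested. Over all cells 2 of 5 passed, against 38.1% of all, *Mmp14* at -1.60 (edgeR adjusted p = 0.0138) and *Timp3* at 1.75 (edgeR adjusted p = 0.0203). Both all-cell calls were lost without Control section 2 (adjusted p = 0.0916 and 0.0926), and that of *Timp3* also without Control section 1 (adjusted p = 0.0994). That of *Mmp14* was also lost with transcripts over the nucleus (-1.02, edgeR adjusted p = 0.0557), and that of *Timp3* with library totals (1.40, edgeR adjusted p = 0.126).

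In keratinocyte-like cells 4 of 5 genes passed, against 70.9% of all genes tested in these cells. *Mmp9* was nearly absent from mucosal keratinocyte-like cells, with 0 to 3.33 CPM in the 6 sections fitted against 155, 173 and 260 CPM in Control skin (log2 fold change -5.07, SE 0.53, edgeR adjusted p = 1.14e-05). *Timp3* went from 2113, 2713 and 5868 CPM to 134 to 777 (-2.34, SE 0.55, edgeR adjusted p = 0.00271). Hair follicle keratinocyte-like cells, the leading kind for *Timp3* in skin, made up 6.56%, 7.85% and 9.41% of cells in Control skin and 0.388% to 1.33% in the buccal sections fitted. In basal keratinocyte-like cells *Timp3* overlapped, with 1730, 2283 and 2111 CPM in Control skin and 470 to 2794 in mucosa. The parts of this mixture and of transcripts from neighboring cells in the summed *Timp3* difference were not tested. *Mmp2* went from 821, 833 and 1198 CPM to 1107 to 1681 (1.82, SE 0.29, edgeR adjusted p = 0.000189), with Control section 3 inside the buccal range. Buccal section 3 had fewer than 50 keratinocyte-like cells and was left out of this fit.

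The direction of *Mmp14* in keratinocyte-like cells depended on the scaling. With TMM, the normalization used throughout, the log2 fold change was 0.74 (SE 0.24, edgeR adjusted p = 0.0183), and with library totals it was -0.65 (edgeR adjusted p = 0.0665). The change of scaling moved the median of all genes in this comparison by -1.43 on the log2 scale, against -0.54 to 0.45 in the other classes. It also moved *Mmp2*, whose fold change became 0.50 (edgeR adjusted p = 0.094). In CPM, *Mmp14* in basal keratinocyte-like cells was 5155 to 8043 in mucosa and 2317, 4587 and 4673 in Control skin, without overlap. In differentiated keratinocyte-like cells the buccal range of 317 to 602 took in Control section 3 (484) and lay below the other Control sections (1580 and 2374). *Timp1* did not pass in any class tested in this comparison (log2 fold changes -0.81 to 0.84). It became a call in keratinocyte-like cells with library totals (-2.23, edgeR adjusted p = 0.000923) and in fibroblast-like cells without Control section 3 (1.91, edgeR adjusted p = 0.0438). *Mmp9* did not pass in fibroblast-like cells (-0.85, edgeR adjusted p = 0.371) or all cells (-1.79, edgeR adjusted p = 0.101).

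**Figure D3:**
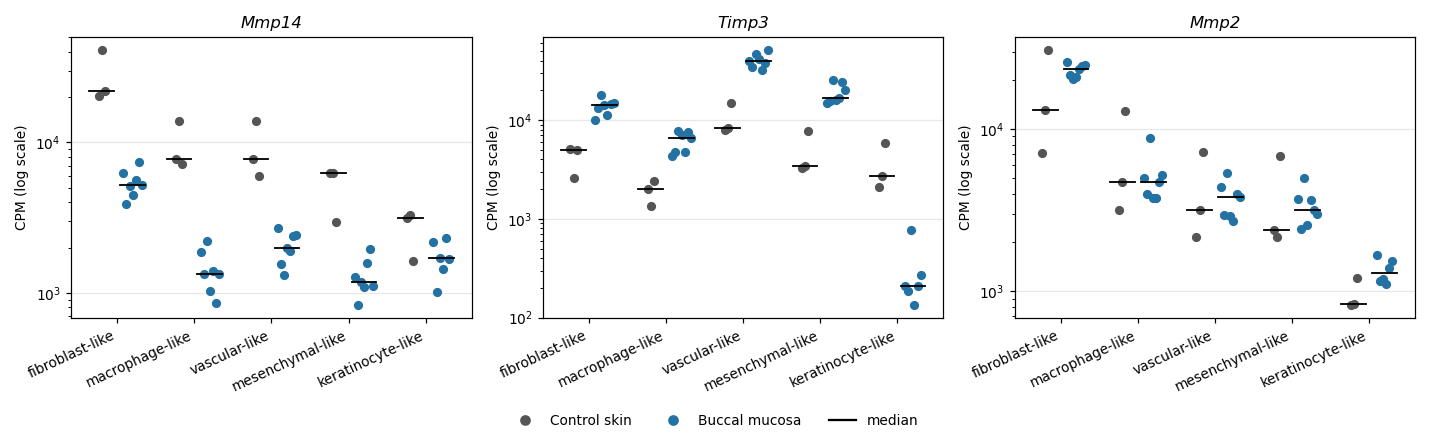
Levels (y axis, CPM, log scale) of *Mmp14* and *Timp3* by class of cells (x axis), 1 point per section of Control skin or buccal mucosa. In fibroblast-like cells the buccal sections hold 3906 to 7377 CPM of *Mmp14* against 20491 to 41156 in Control skin, and 9931 to 17961 of *Timp3* against 2565 to 5090.

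As a summary of both sides, the transcripts of the 3 proteinase genes were divided by those of the 2 inhibitor genes. The ratio has no meaning as enzyme activity, since probes and proteins differ, and serves to compare sections. In fibroblast-like cells it was 5.35 to 21.0 in Control skin, 5.69 to 30.9 in PITX1+ sections and 1.40 to 3.20 in mucosa. In vascular-like cells it was 0.883 to 2.05 in Control skin and 0.117 to 0.180 in mucosa. Keratinocyte-like cells had the opposite order, 0.53 to 1.91 in Control skin and 3.69 to 18.1 in mucosa, in which hair follicle keratinocyte-like cells were rarer. The buccal and Control ranges did not overlap in any of these 3 classes, whereas PITX1+ and Control ranges did over both slides together. Within a slide, the ratio in keratinocyte-like cells was higher in PITX1+ sections, 3.53 and 5.08 against 1.58 and 1.91 on the female slide and 0.722 and 0.755 against 0.53 on the male slide. In fibroblast-like cells it was 20.4 and 30.9 against 5.35 and 21.0 on the female slide, and 5.69 and 7.98 against 10.3 on the male slide. In vascular-like cells it was 3.68 and 4.70 against 1.25 and 2.05 on the female slide, and 0.966 and 0.756 against 0.883 on the male slide.

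The third comparison set the 3 wounds on day 4 against the 3 unwounded male sections, with condition as a covariate. *Mmp9* and *Timp1* were higher in wounds and *Timp3* lower in every class other than keratinocyte-like cells, and *Mmp14* was higher in macrophage-like, vascular-like and mesenchymal-like cells. *Mmp2* was called in no class (log2 fold changes -0.48 to 0.21). Wounding and slide cannot be told apart. Neutrophil-like cells made up 23.5%, 20.4% and 31.7% of the cells in the Control wound and PITX1+ wounds 1 and 2, against 0.15% to 0.58% in unwounded male skin.

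*Timp1* in fibroblast-like cells stood far apart between wounds and unwounded skin. These cells held 161, 670 and 321 CPM in Control section 3 and PITX1+ sections 3 and 4. They held 2855 CPM in the Control wound and 7865 and 4693 in the PITX1+ wounds. Every wound was above every unwounded section, and the log2 fold change was 3.68 (SE 0.39, edgeR adjusted p = 0.000812). The fold changes were 3.44 in macrophage-like (SE 0.44), 3.38 in vascular-like (SE 0.32), 3.82 in mesenchymal-like (SE 0.32) and 3.65 in all cells (SE 0.39), and 1.17 with no call in keratinocyte-like cells (SE 0.42, edgeR adjusted p = 0.169). *Timp1* was the gene of the 5 whose calls in fibroblast-like, macrophage-like, vascular-like, mesenchymal-like and all cells were kept under every alternative setting and without any one section.

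The *Timp1* level differed between the clusters that made up the wound fibroblast-like cells. Cluster 39, led by *Cxcl5*, *Ptx3*, *Saa3* and *Ccl7*, genes of the inflammatory response, held 7276, 12400 and 7518 CPM in the Control wound and PITX1+ wounds 1 and 2. It made up 21.0%, 38.3% and 44.9% of their fibroblast-like cells. Cluster 17, led by *Ccl19* and *Lum*, held 1134, 3648 and 1625 CPM in the same wounds. In that cluster the unwounded male sections held 126, 656 and 297 CPM, below each wound. In cluster 33, led by *Wif1* and *Cdh11*, the wounds held 560, 1313 and 582 CPM and the unwounded sections 179, 635 and 479, with overlap.

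*Mmp9* in fibroblast-like cells stood at 133, 207 and 87.4 CPM in unwounded male sections. The Control wound held 504 CPM and the PITX1+ wounds held 2572 and 5429, all above the unwounded sections. The log2 fold change was 3.86 (SE 0.80, edgeR adjusted p = 0.0102). Cluster 37, led by *Cyp26b1*, *Crabp1* and *Pdgfrb*, had high levels of *Mmp9*, with 1350, 5742 and 9413 CPM in the wounds and 372, 1605 and 1500 in the unwounded male sections. Within this cluster the Control wound lay below PITX1+ sections 3 and 4. It made up 12.9%, 25.2% and 31.2% of fibroblast-like cells in the wounds and 4.86%, 4.94% and 2.98% without a wound. *Timp3* in these cells stood at 4983, 5821 and 6589 CPM without a wound and at 3111, 1554 and 1173 in wounds, with no overlap (-1.84, SE 0.34, edgeR adjusted p = 0.00679). Among clusters found in both, *Timp3* overlapped in clusters 11, 17 and 33 and was lower in wounds without overlap in clusters 19 and 37. Cluster 19 held 8249, 12557 and 10934 CPM without a wound and 2913, 2188 and 2853 in wounds. In cluster 37 *Timp3* went from 10050, 8582 and 14907 CPM to 2249, 1968 and 1059. Cluster 11 held 3490, 3782 and 4897 CPM without a wound and 3500, 1968 and 3773 in wounds, and cluster 17 held 4155, 2350 and 3363 against 3092, 1002 and 2515. Cluster 39 held 1445, 732 and 718 CPM of *Timp3* in the wounds, and the part of the mixture of clusters in the difference was not tested. *Mmp9*, *Timp1* and *Timp3* were the 3 genes called of 5, against 31.0% of all genes tested. *Mmp14* was not called in fibroblast-like cells (0.23, SE 0.24), with 21947, 18733 and 26588 CPM in unwounded and 37323, 23909 and 28138 in wounded sections. *Mmp2* was not called either (-0.16, SE 0.25).

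The neutrophil markers moved with these results. Within fibroblast-like cells the 9 markers summed to 938 to 1748 CPM in the unwounded male sections, with 1 of 9 at 0 in Control section 3, and to 4407, 8664 and 12270 CPM in the wounds, with none at 0. The *Mmp9* call was lost in fibroblast-like cells farther than 50 µm from any neutrophil-like cell (log2 fold change 2.20, edgeR adjusted p = 0.162). The *Timp1* and *Timp3* calls were kept there. The *Mmp9* call was also lost without PITX1+ section 3 (adjusted p = 0.105) or section 4 (adjusted p = 0.0542).

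In macrophage-like cells 4 of 5 genes passed, against 40.3% of all. *Mmp14*, the membrane-type proteinase, stood at 7222, 6248 and 7779 CPM without a wound and at 17896, 12223 and 19126 in wounds (log2 fold change 1.03, SE 0.28, edgeR adjusted p = 0.0155). These cells lay in different clusters in part. Cluster 12 held 52.0% to 66.5% of them without a wound and 24.5% to 41.7% in wounds, and cluster 25 held 8.17% to 17.4% and 40.4% to 44.8%. Within both clusters *Mmp14* was higher in wounds without overlap. It went from 5737 to 7783 CPM to 10322 to 19169 in cluster 12, and from 4475 to 7129 to 12833 to 20546 in cluster 25. *Mmp9* went from 711, 71.9 and 249 CPM to 836, 1879 and 3684 (2.76, SE 0.93, edgeR adjusted p = 0.0394), a call lost under 3 other settings and without PITX1+ section 3 (adjusted p = 0.205), PITX1+ section 4 (adjusted p = 0.197) or PITX1+ wound 1 (adjusted p = 0.0924). That of *Mmp14* was lost without PITX1+ section 3 (adjusted p = 0.0705) and with 30 clusters (0.75, adjusted p = 0.0531). *Timp3* went from 2400, 1774 and 3119 CPM to 1084, 462 and 444 (-2.21, SE 0.39, edgeR adjusted p = 0.00185). Neutrophil markers in macrophage-like cells summed to 7778 to 12536 CPM without a wound and 20450 to 32776 in wounds, and their part in the *Mmp9* difference was not tested. The part of transcripts from other cells in the *Timp3* difference was not tested either.

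In vascular-like cells 4 of 5 passed, against 28.1% of all. *Mmp14* there stood at 5965, 7422 and 7638 CPM without a wound and at 18502, 14256 and 19886 in wounds (1.38, SE 0.20, edgeR adjusted p = 0.0039). *Mmp9* rose by 2.20 (SE 0.53, edgeR adjusted p = 0.0221) and *Timp3* fell by 1.29 (SE 0.32, edgeR adjusted p = 0.0247), 2 calls that were both lost without PITX1+ section 3, PITX1+ section 4 or PITX1+ wound 2 (adjusted p 0.0796 to 0.11). That of *Mmp9* was also lost without the condition covariate (adjusted p = 0.0595) and with transcripts over the nucleus (adjusted p = 0.0569). Neutrophil markers within vascular-like cells summed to 1400 to 3716 CPM without a wound, with 6 of 9 at 0 in Control section 3, and to 4345 to 15316 in wounds. Within mesenchymal-like cells they summed to 978 to 1506 CPM, with 2 at 0 in Control section 3, and to 7360 to 9439 in wounds. Their part in the *Mmp9* differences was not tested. In mesenchymal-like cells 4 of 5 passed, against 47.3% of all, namely *Mmp9* (2.80, edgeR adjusted p = 0.00353), *Mmp14* (1.18, adjusted p = 0.00441), *Timp1* and *Timp3* (-1.50, adjusted p = 0.00164). Over all cells 3 of 5 passed, against 32.3% of all, *Mmp9* at 4.33 (SE 0.78), *Timp1*, and *Timp3* at -1.80 (SE 0.48). The *Mmp9* call over all cells was lost without PITX1+ section 3 (adjusted p = 0.0601), and that of *Timp3* without any one of PITX1+ sections 3 and 4 and PITX1+ wounds 1 and 2 (adjusted p 0.0507 to 0.0756).

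Keratinocyte-like cells had 0 of 5 genes called in edgeR, against 2.14% of all, and 2 with an unadjusted p under 0.05. *Mmp9* stood at 260, 63.1 and 74.2 CPM in unwounded and 298, 676 and 1223 in wounded sections, without overlap (2.92, SE 0.99, edgeR adjusted p = 0.154). DESeq2 called this difference (adjusted p = 0.00491). Neutrophil markers in keratinocyte-like cells summed to 491 to 1328 CPM without a wound, with 1 at 0 in Control section 3, and to 6195 to 14898 in wounds, and their part was not tested. *Timp1* also had an unadjusted p under 0.05. Unnamed cells lay outside this class. They pooled cluster 35, led by *Aldh1a3* and *Sprr2d*, with cluster 27, led by *Mgl2* and *Napsa*. With 30 clusters, a cluster led by *Aldh1a3* and *Sprr2d* was named activated keratinocyte-like. The keratinocyte-like class may thus leave out part of the wound epithelium, whose part was not tested. Unnamed cells made up 1.95%, 6.30% and 6.97% of cells in the Control wound and PITX1+ wounds 1 and 2. Their *Mmp9* level was 2954 CPM in the Control wound and 4398 to 6917 in the PITX1+ wounds.

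**Figure D4:**
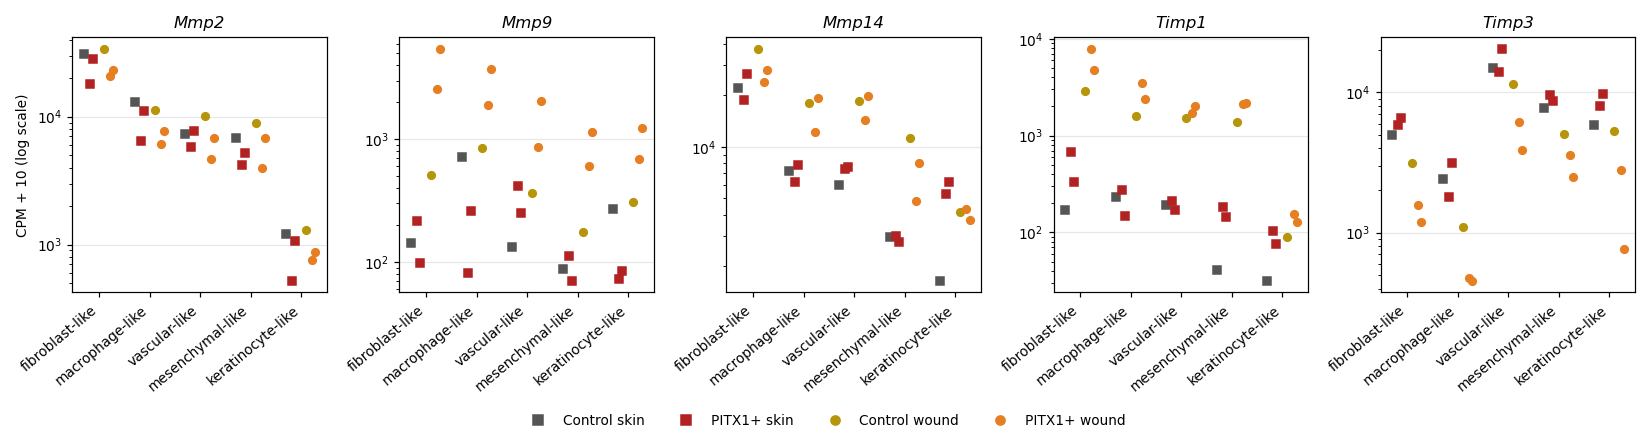
Levels (y axis, CPM + 10, log scale) of the 5 genes by class of cells (x axis), 1 point per section of unwounded male skin or wound. *Timp1* in fibroblast-like cells lies at 2855 to 7865 CPM in the 3 wounds and at 161 to 670 in the 3 unwounded sections, and *Timp3* at 1173 to 3111 against 4983 to 6589.

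With a single Control wound, the wounds of the 2 conditions were not tested against each other. Exact 95% Poisson intervals are given, which cover counting error only. *Mmp9* in fibroblast-like cells stood at 504 CPM in the Control wound (424 to 595), 2572 in PITX1+ wound 1 (2446 to 2702) and 5429 in PITX1+ wound 2 (5300 to 5561). *Timp3* stood at 3111 (2907 to 3325), 1554 (1456 to 1656) and 1173 (1114 to 1235). The Control wound was thus the lowest for *Mmp9* and the highest for *Timp3*. *Mmp2* and *Mmp14* in these cells were highest in the Control wound, with 33920 CPM of *Mmp2* (33239 to 34612) against 20940 and 22989, and 37323 of *Mmp14* (36608 to 38048) against 23909 and 28138.

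Neutrophil-like cells held 60.5%, 60.8% and 53.3% of the *Mmp9* transcripts of the Control wound and PITX1+ wounds 1 and 2. Their level was 8741 CPM (8238 to 9266), 24595 (24047 to 25153) and 18230 (17971 to 18492). Of the *Timp1* transcripts, neutrophil-like cells held 6.2%, 8.4% and 18.6%, while fibroblast-like cells held 48.1%, 61.0% and 52.6%. Cluster 21, named neutrophil-like, had *Crabp1* among its 10 leading genes, as did the fibroblast-like cluster 37. It may thus hold transcripts of fibroblasts, whose part in the neutrophil-like share of *Timp1* was not tested. Of *Mmp9* transcripts, fibroblast-like cells held 7.5%, 12.5% and 19.0%.

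The level of *Mmp9* in fibroblast-like cells was lower at greater distance from the nearest neutrophil-like cell. In the Control wound it went from 1501 CPM within 10 µm to 30.6 beyond 200 µm, in PITX1+ wound 1 from 4398 to 370, and in PITX1+ wound 2 from 6980 to 81.4. *Timp1* went from 7563 to 414, from 7978 to 2590 and from 5313 to 896 over the same distances, with the highest level of PITX1+ wound 1 at 10 to 25 µm (9272). *Timp3* ran the other way in the Control wound (1260 to 3860) and in PITX1+ wound 2 (954 to 4885). In PITX1+ wound 1 it went from 1416 to 370. Only 60 fibroblast-like cells lay beyond 200 µm in that wound, where *Mmp9* and *Timp3* rest on 1 transcript each and *Timp1* on 7. *Mmp2* was also higher far from neutrophil-like cells, from 23948 to 45568 CPM in the Control wound, 18241 to 26267 in PITX1+ wound 1 and 19548 to 33789 in PITX1+ wound 2.

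**Figure D5:**
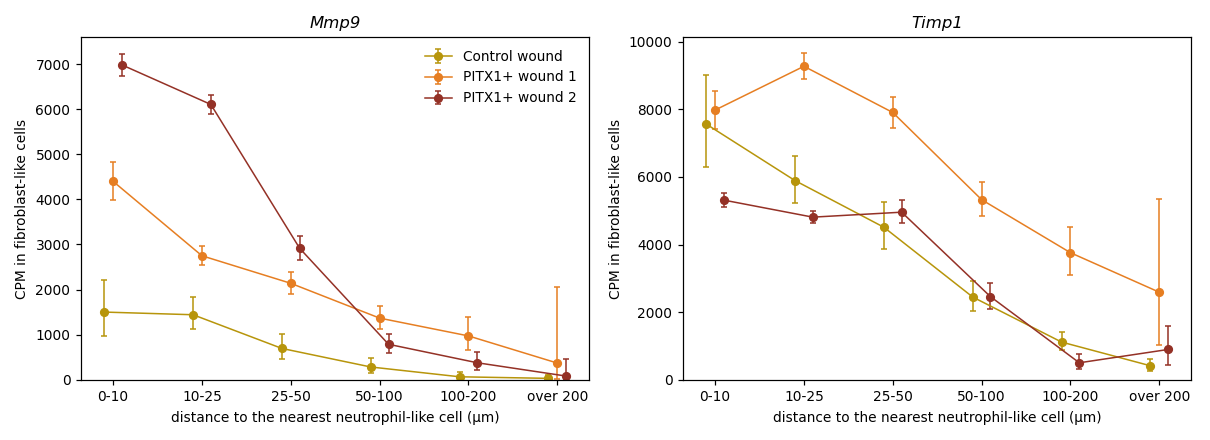
Level in fibroblast-like cells of the 3 wounds (y axis, CPM) against the distance to the nearest neutrophil-like cell (x axis, µm, in 6 bins), with exact 95% Poisson intervals of the counts. *Mmp9* goes from 1501, 4398 and 6980 CPM within 10 µm to 30.6, 370 and 81.4 beyond 200 µm.

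Basal keratinocyte-like cells gave a similar course for *Mmp9*, from 2984 to 192 CPM in PITX1+ wound 1 and from 11864 to 852 in PITX1+ wound 2 between the nearest and the farthest bin. In the Control wound it went from 3399 CPM at 10 to 25 µm, the nearest bin with a value, to 260 beyond 200 µm. The farthest values rest on 7, 3 and 12 transcripts in the Control wound and PITX1+ wounds 1 and 2. In PITX1+ wound 2 the farthest bin lay above the 2 bins before it (359 and 451).

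Near and far cells were compared across all sections that had at least 20 fibroblast-like cells on both sides of 50 µm, 10 in number. *Mmp9* per fibroblast-like cell was higher near neutrophil-like cells in 9 of the 9 sections with transcripts on both sides, by a mean of 2.26 on the log2 scale (1.28 to 4.26). The largest ratio was in PITX1+ section 4, with 80.1 *Mmp9* transcripts per 1000 cells near (29 transcripts) and 4.17 far. Buccal sections 3 and 7 and Control section 3 had only 3, 6 and 19 neutrophil-like cells to set the near side. In Control section 3 and Buccal section 7 the near level of *Mmp9* rests on 1 transcript each. Buccal section 3, with 22 near cells, had 0 *Mmp9* transcripts near and 11 far and was not counted. *Timp1* was higher near in 8 of 8 sections with transcripts on both sides, by a mean of 1.69 (0.96 to 2.15). In Control section 3 its near level rests on 1 transcript. Not counted were Buccal sections 3 and 7, which had 0 *Timp1* transcripts in 22 and 57 near cells and 14 and 31 in far cells. Leaving out such sections depends on the outcome, so that these counts are out of fewer than the 10 sections compared. *Timp3* was lower near in 9 of 10 sections, with a mean of -0.38.

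None of the 5 genes passed in this comparison, in which 0.00% of the 323 genes tested did. The unadjusted p of an exact sign-flip test over sections, two-sided, was 0.00391 for *Mmp9* and 0.00781 for *Timp1*, in each case the smallest that so few sections allow, and 0.0195 for *Timp3*. After adjustment over all genes these were 0.0647, 0.0647 and 0.105. At an unadjusted p under 0.05 there were 89 genes. All panel genes together differed by a mean of 0.02. The 9 neutrophil markers summed were higher near in 9 of 10 sections, by a mean of 1.40 (-0.59 to 3.03), so that transcripts typical of neutrophils moved with *Mmp9* and *Timp1*. Their part was not tested.

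The other matrix genes of the panel were described in fibroblast-like cells from a list of 19 adhesion and matrix genes. In PITX1+ sections 2 of the 19 were higher and 0 lower, *Col7a1*, the anchoring fibril collagen (log2 fold change 1.94, edgeR adjusted p = 0.0193), and *Cd44*, a hyaluronan receptor (0.96, adjusted p = 0.0465), against 7.62% of all genes called. The median over the list was 0.17, beside 0.05 over all genes. In mucosa 2 were higher and 5 lower, against 30.1% of all genes called, with *Lrp1*, an endocytic receptor for proteinases and their complexes, at -0.98 (edgeR adjusted p = 0.0079), *Itgb3* at -1.17, *Cd44* at 1.26 and *Sdc1* at -1.02, and a median of -0.00 beside -0.20. In wounds 5 were higher and 2 lower, against 31.0% of all genes called, among them *Tnc*, a matrix protein of healing wounds, at 4.55 (edgeR adjusted p = 0.00126), *Tnxb* at -1.91, *Thbs2* at 1.18 and *Thbs1* at 1.59. The median of the list in wounds was 0.35, beside -0.05 over all genes.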

How the data were processed

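The authors processed the sections on 4 Xenium slides (formalin-fixed, paraffin-embedded; custom panel of 328 genes) and deposited the instrument's output, in which each transcript has a quality score, a position and a cell, and each cell has counts without normalization. The deposited scores (threshold 20) selected transcripts, and adding them up gave each cell's deposited count in 100% of cells. Deposited fold changes were not used. Segmentation settings were not given in the sources used here. Transcript totals per slide were 6288712 (male), 10412627 (female), 8797668 (buccal) and 10483436 (wounds).

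Cells were joined into sections when within 100 µm (wounded slide 200 µm), and groups of at least 2000 cells were kept and ordered by position. Cells with fewer than 10 transcripts were dropped. Doublets were not removed, and the eschar, which the study left out, was not separated. Counts were clustered (k-means, 45 clusters, 40 principal components, each gene scaled to unit SD) without 25 genes, among them the 5 described. Clusters were named for the kind with the most markers among the 10 leading genes, then for that with the most markers 1.5-fold higher, of which at least 3 were needed. Cluster 39 had no marker of any kind among its leading genes and was named fibroblast-like from 5 raised markers. The scaling was chosen, and a naming rule added, after cluster names had been seen. The genes and lists were chosen with earlier results of these data known. Named were the 5 genes, up to 4 genes of the matrix list per comparison with the lowest adjusted p, the 3 genes most like each of the 5, and *Pitx1*. Other metalloproteinases of the panel are not reported here.

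Counts were summed per section and class with at least 50 cells, and tested by quasi-likelihood in edgeR 4.0.16 under R 4.3.3 (TMM scaling, genes filtered with filterByExpr, Benjamini-Hochberg over all genes of a class, threshold 0.05). The PITX1+ comparison had slide and the wound comparison condition as a covariate. Shares were computed per section, and 60 exact permutation tests of them gave no p under 0.05 after adjustment, which says little, since the smallest p possible was 0.0571 for 3 against 4 sections and 0.0167 for 3 against 7 before adjustment. Python 3.11.15 was used with scikit-learn 1.9.0, scipy 1.17.1, matplotlib 3.10.9, pandas 2.3.3 and numpy 2.4.6. Tested on simulated data, edgeR recovered 79.4% of genes changed by 1 on the log2 scale in fibroblast-like cells of the wound comparison and 97% in the PITX1+ comparison. In the buccal comparison it called 14.7% of unchanged genes in fibroblast-like cells. The simulation gave every gene the same dispersion and put in no slide effect, so these rates may not hold for the measured counts. Alternatives were library totals, DESeq2 1.42.0, no gene filter, transcripts over the nucleus or of any quality, at least 20 or 5 transcripts per cell, 30 and 60 clusters, other covariates, distances of 25 and 100 µm, and leaving out each section. Fits of single slides and of far cells were added after the data had been seen.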

Additional observations from a re-analysis of the deposited data

Results flagged for a closer look

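The response of *Mmp9* in keratinocyte-like cells differed between the female and the male slide by 2.74 on the log2 scale. This is a value only, since the male slide has 1 Control section. On the female slide *Pitx1* did not follow the assignment. Of 60 groups of values examined, 3 were flagged, where chance flags about 1 group in 20. In all 3, Buccal section 3, the smallest, stood apart from the other 6 buccal sections. The 60 took in groups that this section could not enter, those of PITX1+ sections and of buccal keratinocyte-like cells. Buccal section 3 held 8843 CPM of *Mmp2* in macrophage-like cells (others 3734 to 5188). Its *Mmp9* stood at 246 CPM in all cells (others 6.30 to 42.2) and 293 CPM in fibroblast-like cells (others 25.1 to 61.0).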

How the results depend on the processing

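Of 34 called results, 505 of 553 alternative values kept the direction and the call, 47 lost the call and 1 reversed. The reversal was *Mmp14* in keratinocyte-like cells of mucosa at -0.65 with library totals. Of 54 results not called, 22 of 887 alternative values became calls and 2 reversed to a call. These were *Mmp2* in vascular-like and mesenchymal-like cells of mucosa without Control section 3, with leave-out ranges of -0.43 to 1.03 and -0.42 to 1.24. The PITX1+ comparison was the least stable, with 2 calls in the 5 classes and all cells, each a gene in a class. It gave 0 calls without the slide covariate, 1 with 30 clusters and 1 with 60. With far fibroblast-like cells in place of that class it gave 1, the *Mmp14* call in keratinocyte-like cells, which this setting does not touch. The female slide alone gave 6, among them *Timp3* in fibroblast-like, macrophage-like and all cells. The male slide has a single Control section and is no test. Leaving out single sections gave 0 to 4. The wound comparison had 18 calls, and 11 to 18 without single sections, 11 being without PITX1+ section 3. The near and far comparison called 0 genes, and 1, *Mmp9*, at 100 µm. DESeq2 called 3, 14 and 19 in the PITX1+, buccal and wound comparisons, against 2, 14 and 18 in edgeR. Shares of all genes called under the alternative settings and on the female slide alone are not given here, so these counts have no background beside them. Sections are numbered by position, so no paired analysis was possible because the labels give sections no numbers to pair. Kept cells held the fewest transcripts in Buccal section 3 and Control sections 2 and 3, and a level of 0 there is limited by few transcripts.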
